A study of Mus musculus with 9 samples.

Results

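Matrix metalloproteinases (Mmps), Adamts proteases with their Adamts-like relatives, and the tissue inhibitors of metalloproteinases (Timps) were followed in mouse tibiae exposed to titanium wear particles. A gene was taken by its symbol, as Mmp followed by a digit, any symbol that starts with Adamts, and the Timps, with Mmp12 left out. This gave 50 of the 22183 genes measured, made up of 22 Mmps, 19 Adamts proteases, 5 Adamts-like genes and 4 Timps.

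Mmps and Adamts proteases are zinc enzymes made as inactive precursors, and they cut collagens, proteoglycans and other matrix proteins outside the cell once their propeptide is removed. Timps bind the active enzymes and block them, and Timp2 also takes part, together with Mmp14, in activating the precursor of Mmp2. In bone, Mmp13 is made by osteoblasts, osteocytes and hypertrophic chondrocytes, Mmp9 by osteoclasts and neutrophils, and Mmp8 by neutrophils. Adamts-like proteins lack the protease domain and bind to the matrix.

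Whole tibiae were sequenced in 3 groups of 3 libraries. Ti+I-OG tibiae were exposed to titanium particles and then given I-OG, a natural-polymer hydrogel that is injected and carries the hormone irisin, with 5 weeks of treatment. Ti tibiae had the titanium particles alone, and naive tibiae were left untreated. Aseptic loosening, the setting the study addresses, is the loss of bone around an implant that wear particles set off. The labels give no strain, age or sex, and no time for the Ti and naive tibiae. They name no group with empty hydrogel and no sham group, so an effect of particles cannot be told apart from one of the procedure, nor irisin from its carrier. Nothing in them says that libraries are separate animals, and the p-values then reflect spread among samples that may be technical. In whole tibia, fewer cells of a type and less RNA per cell cannot be told apart.

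Libraries held 16256081 to 24766502 counts. Globin transcripts took 15.1% to 15.9% of counts in Ti+I-OG libraries, 6.68% to 9.98% in Ti libraries and 2.95% to 9.47% in naive libraries. Markers of osteoclasts, osteoblasts, osteocytes, chondrocytes, neutrophils and the other listed cell types of bone and marrow were all detected, with none at 0. Naive replicate 3 stood apart from the other naive libraries, with a summed osteoblast marker level of 793 CPM (counts normalised to library size) against 1718 and 1740 CPM in naive replicates 1 and 2. For the Mmps, Adamts genes and Timps, the calls lost without it and the number of genes called without it are given below. Their medians, their FPKM values and the counts of positive or separated genes include it. Marker sums and the counts in other gene lists include it throughout.

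Of the 50 genes, 38 passed the filter on low counts and were tested among 14211 genes in all. They were 15 Mmps, 14 Adamts proteases, the 5 Adamts-like genes and the 4 Timps. A gene is called when its p-value from edgeR's quasi-likelihood test, adjusted over all 14211 genes by the Benjamini-Hochberg method, is under 0.05. The other 12 genes did not enter this test. Mmp1a, Mmp1b, Mmp7, Mmp20 and Adamts19 had no count in any library, where 3 counts, the limit that a count of 0 allows, correspond to 0.114 to 0.206 CPM. Mmp10, Mmp21, Mmp24, Adamts8, Adamts16, Adamts17 and Adamts20 had 4 to 59 counts summed over the 9 libraries.

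A run of 9 of these Mmp genes lies on chromosome 9, in the order Mmp13, Mmp1b, Mmp3, Mmp1a, Mmp10, Mmp8, Mmp27, Mmp20 and Mmp7. Mmp12, left out here, has exons that overlap those of Mmp1b on the other strand. The 9 genes include the interstitial collagenases, the stromelysins Mmp3 and Mmp10 and the matrilysin Mmp7. Their levels in tibia covered almost the whole range of the family, since Mmp13 and Mmp8 were among the most abundant while Mmp10 had 4 counts and Mmp1a, Mmp1b, Mmp20 and Mmp7 had none. The promoters of Mmp13 and Mmp3, which are called in Ti vs naive below, are shown with those of the nearly silent Mmp10 and of the abundant Mmp8, which is not called. Each line gives the plus strand of the RefSeq sequence, build GRCm38.p6, from 250 bases before the annotated start to 50 bases from the start on. The windows are chr9:7272264-7272563 for Mmp13, chr9:7445572-7445871 for Mmp3, chr9:7502092-7502391 for Mmp10 and chr9:7558179-7558478 for Mmp8. Capitals mark TGANTCA, the AP-1 motif, which reads the same on both strands.
Mmp13: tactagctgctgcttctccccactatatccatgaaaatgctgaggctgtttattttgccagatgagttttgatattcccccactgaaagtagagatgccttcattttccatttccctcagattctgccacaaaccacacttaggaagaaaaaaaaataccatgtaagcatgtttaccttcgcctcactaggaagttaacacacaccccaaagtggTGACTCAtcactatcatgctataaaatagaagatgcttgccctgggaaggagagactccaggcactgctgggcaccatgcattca
Mmp3: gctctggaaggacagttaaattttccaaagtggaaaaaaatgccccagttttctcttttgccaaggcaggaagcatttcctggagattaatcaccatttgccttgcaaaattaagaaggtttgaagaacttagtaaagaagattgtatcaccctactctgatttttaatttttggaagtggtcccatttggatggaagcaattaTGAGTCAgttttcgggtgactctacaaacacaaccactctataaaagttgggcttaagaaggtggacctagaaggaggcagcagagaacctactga
Mmp10: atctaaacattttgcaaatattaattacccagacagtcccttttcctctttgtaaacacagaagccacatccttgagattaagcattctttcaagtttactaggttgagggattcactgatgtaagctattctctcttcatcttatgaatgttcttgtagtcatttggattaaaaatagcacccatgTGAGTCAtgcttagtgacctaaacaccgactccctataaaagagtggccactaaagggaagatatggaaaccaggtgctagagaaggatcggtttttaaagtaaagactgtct
Mmp8: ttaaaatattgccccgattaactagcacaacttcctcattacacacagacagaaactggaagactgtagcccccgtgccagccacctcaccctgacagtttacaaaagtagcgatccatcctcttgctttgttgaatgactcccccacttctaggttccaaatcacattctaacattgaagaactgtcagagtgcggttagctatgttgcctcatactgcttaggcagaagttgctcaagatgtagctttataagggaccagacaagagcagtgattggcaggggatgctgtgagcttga

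TGANTCA began 35 bases before the start in Mmp13, 46 bases before it in Mmp3 and 63 bases before it in Mmp10, and was not found in the Mmp8 window. RefSeq held 37 promoter windows for 35 of the 50 genes, and 7 of these windows held TGANTCA on either strand. All 7 belonged to the run on chromosome 9, namely Mmp13, Mmp1b, Mmp3, Mmp1a, Mmp10, Mmp20 and Mmp7. None of the 27 windows of the genes elsewhere held it, and 7.8% of all 32851 promoter windows did. Every gene of the run had a window. The genes without one, Mmp2 and Mmp9 among them, lie elsewhere and were not searched. The motif did not track the level in tibia: of the 7 genes that hold it, Mmp13 and Mmp3 were tested, Mmp10 had 4 counts and the other 4 had none. The Runx motif TGTGGT, searched on both strands, was in 6 of the 37 windows, Mmp13 and Mmp14 among them, and in 16.8% of all promoters. TATAAA, also on both strands, was in 11 of the 37 windows and in 13.6% of all promoters. These matches describe letters in a window and do not show binding.

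**Figure D1:**
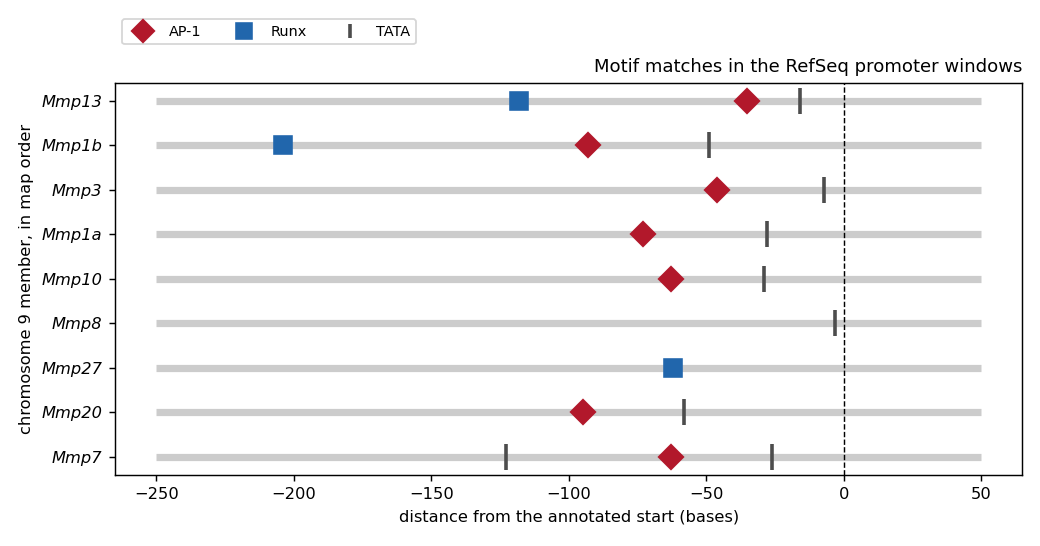
Matches of 3 motifs in the promoter windows of the chromosome 9 Mmp genes, with Mmp12 left out. The horizontal axis is the distance in bases from the annotated start, each row is a gene in map order, and markers show the AP-1, Runx and TATA motifs. For Mmp7 the first of its windows is drawn. The AP-1 motif lies within 95 bases before the start in 7 of the 9 genes and is missing from the Mmp8 and Mmp27 windows.

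Levels between genes are compared here as FPKM, fragment counts scaled by transcript length and library depth. The gelatinase Mmp9 averaged 291 FPKM in Ti+I-OG, 396 FPKM in Ti and 372 FPKM in naive tibiae. The neutrophil collagenase Mmp8 averaged 267, 371 and 389 FPKM in the same groups, and the collagenase Mmp13 averaged 139, 205 and 89.96 FPKM. Mmp8 and Mmp9 together made up 70.53% to 76.11% of all Mmp FPKM in Ti+I-OG libraries, 67.16% to 77.15% in Ti libraries and 79.96% to 84.79% in naive libraries. Ti+I-OG and Ti ranges overlapped, and both lay below the naive range.

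Averaged over the 9 libraries, Timp2 at 46.7 FPKM and Timp3 at 33.4 FPKM followed Mmp13, and Mmp14, Mmp2, Mmp25 and Timp1 lay between 17.2 and 22.6 FPKM. Mmp3 averaged 1.91 FPKM. Adamts2 led the Adamts proteases with 7.39 FPKM, ahead of Adamts10 with 4.31 FPKM and Adamts5 with 2.50 FPKM. Summed, the 19 Adamts proteases reached 17.4 to 19.2 FPKM in Ti+I-OG, 22.1 to 26.4 FPKM in Ti and 18.6 to 22.5 FPKM in naive libraries. The 4 Timps summed to 88.5 to 98.4 FPKM in Ti+I-OG, 106 to 131 FPKM in Ti and 72.4 to 94.7 FPKM in naive libraries. For both sums the Ti+I-OG range lay below the Ti range, which for the Timps also lay above the naive range.

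**Figure D2:**
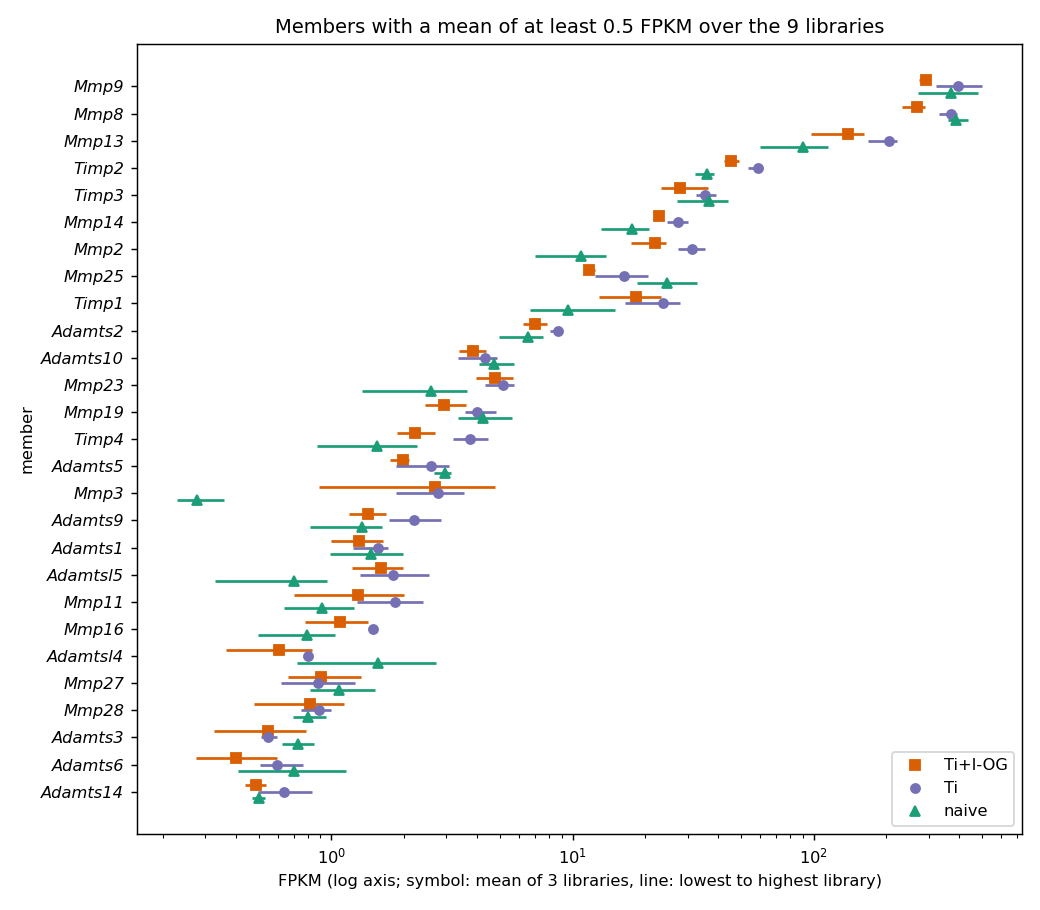
FPKM of the genes that averaged at least 0.5 FPKM over the 9 libraries. The horizontal axis is FPKM on a log scale, each row is a gene ordered by its mean, symbols are the means of the 3 Ti+I-OG, 3 Ti and 3 naive libraries, and lines run from the lowest to the highest library. Mmp9, Mmp8 and Mmp13 lie above all other genes shown, and Mmp3 shows the widest gap between naive and both other groups.

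The first question was which of these genes differ between tibiae with titanium particles and untreated tibiae. In Ti vs naive, 7 of the 38 tested genes rose and none fell. The 7 were the proteases Mmp13, Mmp2, Mmp3, Mmp14 and Adamts12 and the inhibitors Timp1 and Timp2. This is 18.4% of the 38, against 6.43% of all 14211 genes called in either direction, 4.05% called higher and 2.39% called lower. At an unadjusted p under 0.05 there were 15 of the 38, against 26.9% of all genes. The median log2 fold change was 0.51 over the 38 genes and 0.00688 over all genes, and 32 of the 38 were positive against 50.7% of all genes. In 16 of the 38 every Ti library lay above every naive library, and in 1 every Ti library lay below, while over all genes these shares were 14.3% and 12.9%. Beside the 7 called genes, the 16 were Mmp11, Mmp16, Mmp23, Adamts2, Adamts7, Adamts9, Adamts14, Adamtsl5 and Timp4, with adjusted p between 0.0691 and 0.344 by edgeR, and the gene below was Adamts3, a procollagen N-propeptidase like Adamts2 (adjusted p = 0.446). By family, 4 of 15 Mmps, 1 of 14 Adamts proteases, 0 of 5 Adamts-like genes and 2 of 4 Timps rose. The family medians were 0.59, 0.47, 0.85 and 0.89 in the same order.

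**Figure D3:**
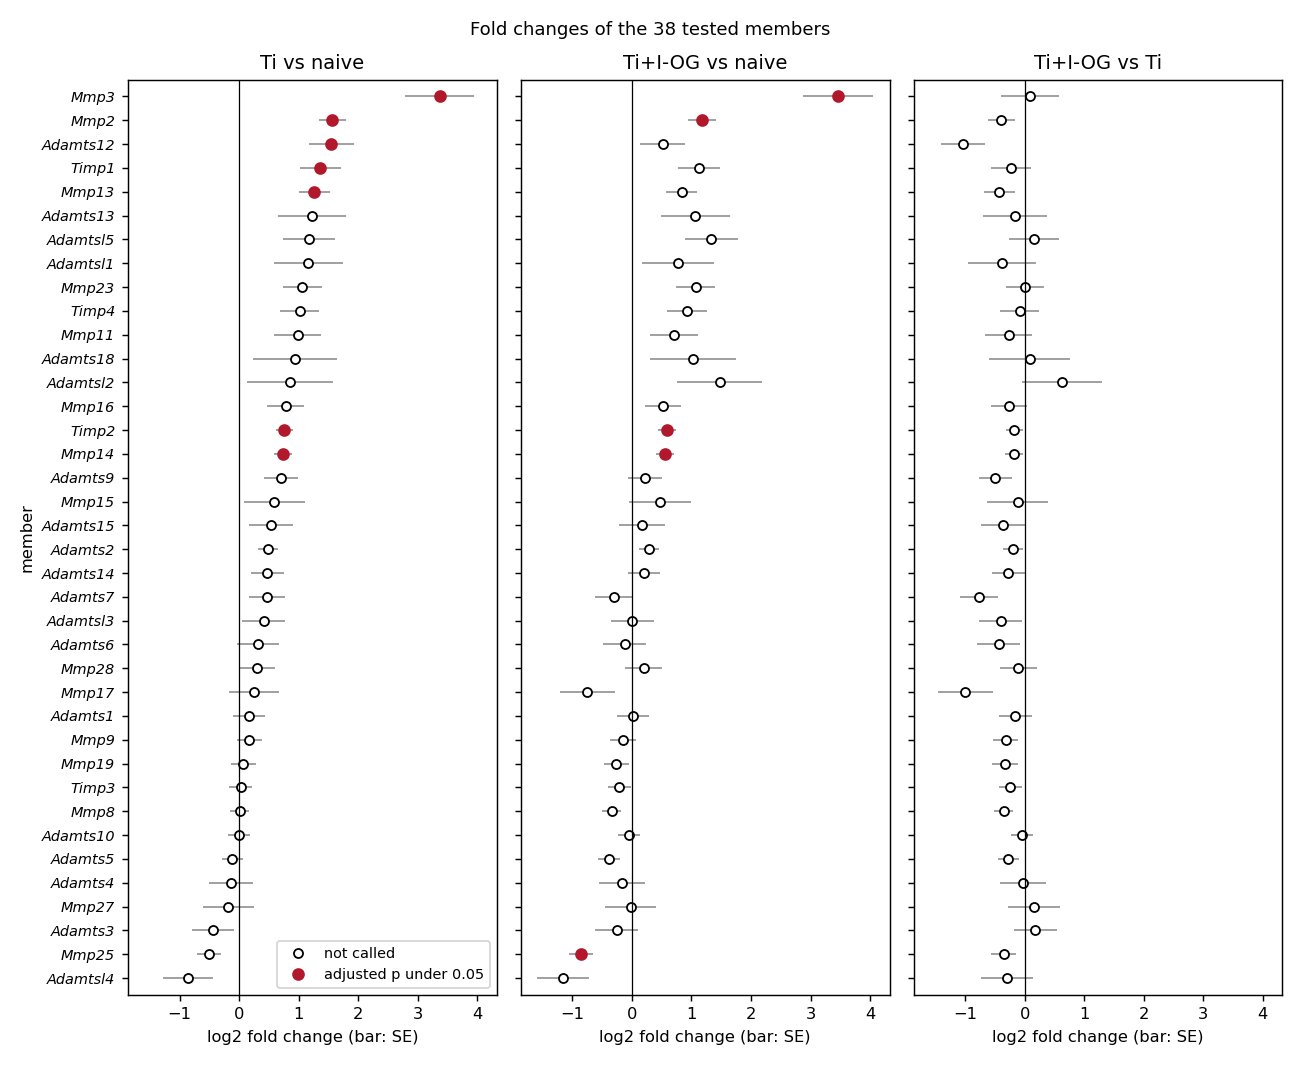
Log2 fold changes of the 38 tested genes in Ti vs naive, Ti+I-OG vs naive and Ti+I-OG vs Ti. The horizontal axis is the log2 fold change, each row is a gene, bars are 1 SE and filled points are called. Called genes number 7, 5 and 0 in the 3 comparisons, and the points lie mostly right of 0 in Ti vs naive and mostly left of it in Ti+I-OG vs Ti. Ti vs naive and Ti+I-OG vs Ti share the Ti libraries.

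Among the collagenases, Mmp13, the main interstitial collagenase of mouse bone, had 589, 589 and 445 CPM in Ti tibiae, against 288, 154 and 233 CPM in naive tibiae. The groups did not overlap, and Mmp13 rose by 1.27 on the log2 scale (SE 0.263; edgeR, adjusted p = 0.0225). Mmp8, stored in neutrophil granules, had 936, 795 and 945 CPM in Ti tibiae, against 839, 840 and 971 CPM in naive tibiae. The groups overlapped, with a log2 difference of 0.01 (SE 0.159; edgeR, adjusted p = 0.965). Without naive replicate 3, Ti replicate 1 or Ti replicate 2, the adjusted p of Mmp13 was 0.0618, 0.0911 or 0.0860.

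Of the gelatinases, Mmp2, which stromal cells secrete and which cuts denatured and basement membrane collagens, had 82.6, 103 and 93.4 CPM in Ti tibiae, against 39.5, 35.0 and 19.6 CPM in naive tibiae. The groups stood well apart and Mmp2 rose 2.96-fold (log2 1.57, SE 0.229; edgeR, adjusted p = 0.00584). It was called in all 17 alternative fits, which include leaving out each library in turn. Mmp9, the gelatinase of osteoclasts and neutrophils, had 1148, 1013 and 1567 CPM in Ti tibiae, against 1089, 831 and 1396 CPM in naive tibiae. Its groups overlapped almost fully (log2 difference 0.17, SE 0.212; edgeR, adjusted p = 0.636).

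Mmp3, stromelysin, which cuts proteoglycans and activates other Mmp precursors, had the largest fold change of the 38 genes. It had 5.15, 6.35 and 3.28 CPM in Ti tibiae, against 0.608, 0.420 and 0.377 CPM in naive tibiae, and the naive values rest on 34 counts in all. Every Ti library lay above every naive library, and Mmp3 rose 10.3-fold (log2 3.37, SE 0.58; edgeR, adjusted p = 0.0122). Without Ti replicate 1 its adjusted p was 0.0578 and its log2 fold change 3.33.

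Mmp14, the membrane-anchored collagenase that activates Mmp2, had 63.2, 77.2 and 70.9 CPM in Ti tibiae, against 49.4, 32.7 and 44.8 CPM in naive tibiae. The groups did not overlap and Mmp14 rose 1.66-fold (log2 0.73, SE 0.155; edgeR, adjusted p = 0.0231). Its adjusted p was 0.0568 without naive replicate 3, 0.0698 without Ti replicate 1 and 0.102 without Ti replicate 2. The membrane-anchored Mmp25 of neutrophils had 72.4, 55.7 and 89.6 CPM in Ti tibiae, against 95.8, 80.9 and 132 CPM in naive tibiae. These ranges overlapped (log2 difference -0.50, SE 0.202; edgeR, adjusted p = 0.140). Mmp23 averaged 7.33 ± 1.02 CPM in Ti and 3.50 ± 1.60 CPM in naive tibiae (SD, n = 3 each), without overlap, and missed the threshold (edgeR, adjusted p = 0.0691).

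Adamts12, a protease of the cartilage protein Comp, had 7.60, 9.24 and 3.63 CPM in Ti tibiae, against 1.97, 1.96 and 3.06 CPM in naive tibiae. The lowest Ti library lay just above the highest naive library, and Adamts12 rose 2.93-fold (log2 1.55, SE 0.377; edgeR, adjusted p = 0.0355). It was called in 9 of 17 alternative fits, the fewest of the 7 genes. Leaving out naive replicate 1, 2 or 3 gave an adjusted p of 0.1001, 0.0594 or 0.0630, and leaving out Ti replicate 1 or 2 gave 0.122 or 0.158.

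Other Adamts proteases did not pass. Adamts2, which removes the N-propeptide of procollagen, averaged 61.4 ± 3.43 CPM in Ti and 43.8 ± 10.3 CPM in naive tibiae (SD, n = 3 each), without overlap (log2 difference 0.49; edgeR, adjusted p = 0.0950). The aggrecanase Adamts5 averaged 27.6 ± 7.002 CPM in Ti and 29.9 ± 2.01 CPM in naive tibiae, with overlap (log2 difference -0.11; edgeR, adjusted p = 0.710). Adamts7, a relative of Adamts12 that also cuts Comp, had a log2 difference of 0.47 and Adamts10, linked to fibrillin microfibrils, one of 0.0013. Adamts13, which cuts von Willebrand factor, lay under 1 CPM in every library, at 0.897, 0.660 and 0.392 CPM in Ti and 0.418, 0.187 and 0.209 CPM in naive tibiae. Among the Adamts-like genes, Adamtsl5 averaged 2.53 ± 0.595 CPM in Ti and 1.13 ± 0.586 CPM in naive tibiae (log2 difference 1.18, SE 0.438; edgeR, adjusted p = 0.119).

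Of the inhibitors, Timp1 had 22.7, 23.8 and 13.96 CPM in Ti tibiae, against 5.96, 12.4 and 5.24 CPM in naive tibiae. The groups did not overlap, and Timp1 rose 2.57-fold (log2 1.36, SE 0.347; edgeR, adjusted p = 0.0402). Timp2 had 170, 227 and 180 CPM in Ti tibiae, against 109, 122 and 109 CPM in naive tibiae. All Ti libraries lay above the naive ones, and Timp2 rose 1.70-fold (log2 0.76, SE 0.144; edgeR, adjusted p = 0.0167). Timp3, the matrix-bound inhibitor that also blocks Adamts proteases, averaged 166 ± 15.9 CPM in Ti and 163 ± 37.1 CPM in naive tibiae, with overlap (edgeR, adjusted p = 0.934). Timp4 averaged 8.42 ± 2.31 CPM in Ti and 4.19 ± 1.69 CPM in naive tibiae, without overlap (SD, n = 3 each; log2 difference 1.01; edgeR, adjusted p = 0.0843).

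Left-out libraries mattered for both called Timps. Leaving out naive replicate 1 or 3 gave Timp1 an adjusted p of 0.117 or 0.141, leaving out Ti replicate 1 or 2 gave 0.139 or 0.162, and leaving out Ti+I-OG replicate 1 or 2, which enter the shared estimate of spread, gave 0.0657 or 0.0538. That of Timp2 was 0.0506 and 0.0560 without naive replicates 1 and 3 and 0.0773 without Ti replicate 2. The number of the 38 genes called was 4 without naive replicate 1, 9 without naive replicate 2 and 2 without naive replicate 3, and 2 without Ti replicate 1 or Ti replicate 2. Among all genes the count ran from 100 to 1999 when single libraries were left out, against 914. It was 213 without naive replicate 3.

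**Figure D4:**
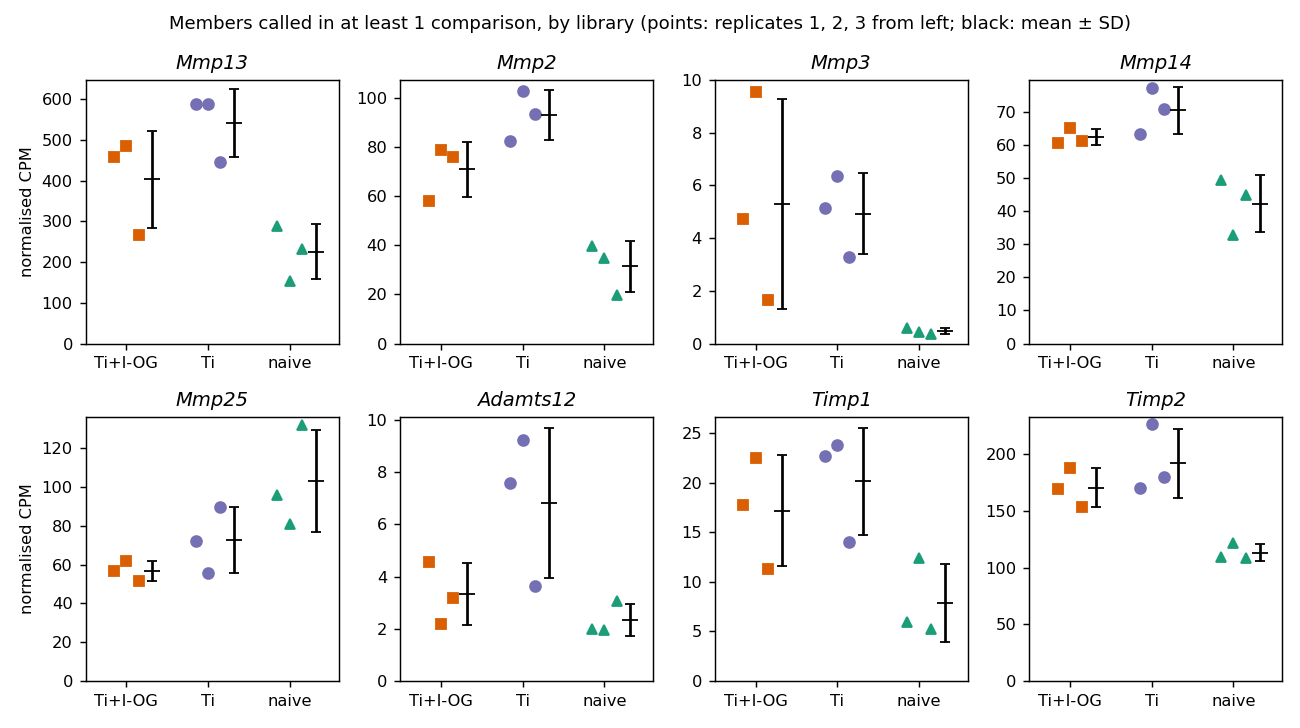
Normalised CPM of the genes called in at least 1 comparison. Each panel is a gene, the vertical axis starts at 0 and is in CPM, points are single libraries of the Ti+I-OG, Ti and naive groups, and the line and bar give the mean and SD of 3 libraries. Ti points lie above naive points without overlap in each gene except Mmp25.

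Cell type markers moved in the same comparison, in which 4.05% of all 14211 genes were called higher. In 14.3% of all genes every Ti library lay above every naive library. The summed osteoclast markers were 1771 to 1873 CPM in Ti and 667 to 1080 CPM in naive libraries, with 6 of 8 genes called higher. Osteoblast markers summed to 3033 to 4526 CPM in Ti and 793 to 1740 CPM in naive libraries, with 5 of 8 called higher. Osteocyte markers summed to 233 to 304 CPM in Ti and 90.5 to 118 CPM in naive libraries, with 5 of 5 called higher. Chondrocyte markers summed to 882 to 1013 CPM in Ti and 184 to 407 CPM in naive libraries, with 3 of 8 called higher. Tendon and fibroblast markers summed to 152 to 293 CPM in Ti and 42.7 to 59.9 CPM in naive libraries, with 6 of 8 called higher. Smooth muscle and pericyte markers summed to 129 to 312 CPM in Ti and 66.6 to 109 CPM in naive libraries, with 3 of 4 called higher and all 4 without overlap. Of 5 mast cell markers, 3 were called higher, though their sum was 69.6 to 85.6 CPM in Ti and 85.8 to 98.5 CPM in naive libraries. Macrophage markers summed to 635 to 723 CPM in Ti and 527 to 595 CPM in naive libraries, with 1 of 8 called higher. B lineage markers summed to 335 to 375 CPM in Ti and 106 to 319 CPM in naive libraries, with none of 7 called. Endothelium markers summed to 184 to 213 CPM in Ti and 165 to 180 CPM in naive libraries, with none of 5 called. Skeletal muscle markers had 1 of 7 called higher. Sums of skeletal muscle, erythroid, megakaryocyte, adipocyte and Schwann markers overlapped. Neutrophil markers summed to 30579 to 40782 CPM in Ti and 35422 to 47167 CPM in naive libraries, and none of 8 was called at an adjusted p under 0.05. The part of these markers in the results for Mmps, Adamts12 and Timps was not tested.

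The second question was whether the irisin hydrogel altered these genes in particle-exposed tibiae. None of the 38 tested genes was called by edgeR in Ti+I-OG vs Ti, and none by DESeq2 or in any other alternative fit. At an unadjusted p under 0.05 there were 2, Adamts12 and Adamts7, both lower. Over all 14211 genes, 0.0422% were called, all of them higher in Ti+I-OG, and 7.84% had an unadjusted p under 0.05. Of the 38, 31 had a negative log2 fold change and 7 a positive one, with a median of -0.25, against 49.6% positive and a median of -0.00313 over all genes. This comparison shares its Ti libraries with Ti vs naive, so high values in them would move both comparisons, in opposite directions. In 5 genes, Mmp2, Mmp8, Mmp17, Adamts2 and Adamts7, every Ti+I-OG library lay below every Ti library, and in none did every one lie above. Over all genes, 6.71% showed this separation downwards and 7.75% upwards. The family medians were -0.27 for Mmps, -0.23 for Adamts proteases, -0.29 for Adamts-like genes and -0.20 for Timps.

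Adamts12 had 4.56, 2.20 and 3.17 CPM in Ti+I-OG tibiae, against 7.60, 9.24 and 3.63 CPM in Ti tibiae. Of the Ti libraries, 1 lay within the Ti+I-OG range, and the fold was 0.489 (log2 -1.03, SE 0.373; edgeR, unadjusted p = 0.0173, adjusted p = 0.628). Adamts7 had 1.44, 1.03 and 1.87 CPM in Ti+I-OG tibiae, against 2.12, 2.598 and 2.69 CPM in Ti tibiae. The groups did not overlap (log2 difference -0.76, SE 0.316; edgeR, unadjusted p = 0.0327, adjusted p = 0.630).

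Mmp2 had 58.2, 78.6 and 76.1 CPM in Ti+I-OG tibiae, against 82.6, 103 and 93.4 CPM in Ti tibiae. Each Ti+I-OG library was lower, though by less than the test asks (log2 difference -0.39, SE 0.223; edgeR, adjusted p = 0.667). Mmp8 averaged 701 ± 107 CPM in Ti+I-OG and 892 ± 84.1 CPM in Ti tibiae (SD, n = 3 each; log2 difference -0.35; edgeR, adjusted p = 0.630). Mmp9 averaged 995 ± 42.3 CPM in Ti+I-OG and 1243 ± 289 CPM in Ti tibiae, with overlap (log2 difference -0.32; edgeR, adjusted p = 0.698). Adamts2 averaged 53.7 ± 3.91 CPM in Ti+I-OG and 61.4 ± 3.43 CPM in Ti tibiae (log2 difference -0.20; edgeR, adjusted p = 0.767). Mmp17, a membrane-anchored Mmp named here after its values were seen, lay at 0.843, 0.756 and 0.283 CPM in Ti+I-OG and 1.46, 1.28 and 1.03 CPM in Ti tibiae.

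None of the other genes that had risen in Ti vs naive passed the test here. Mmp13 had 459, 485 and 266 CPM in Ti+I-OG tibiae, against 589, 589 and 445 CPM in Ti tibiae, and the groups overlapped (log2 difference -0.43, SE 0.259; edgeR, adjusted p = 0.676). Mmp3 had 4.71, 9.55 and 1.64 CPM in Ti+I-OG tibiae, so its single libraries spanned the whole Ti range of 3.28 to 6.35 CPM (log2 difference 0.09, SE 0.486; edgeR, adjusted p = 0.971). Mmp14 averaged 62.4 ± 2.46 CPM in Ti+I-OG and 70.4 ± 7.03 CPM in Ti tibiae. Timp1 averaged 17.2 ± 5.61 CPM in Ti+I-OG and 20.1 ± 5.38 CPM in Ti tibiae, and Timp2 averaged 171 ± 17.1 CPM in Ti+I-OG and 192 ± 30.4 CPM in Ti tibiae (SD, n = 3 each). The log2 differences of these last genes were -0.18, -0.23 and -0.17, each with overlap. The 4 Timps were all negative, with Timp3 at -0.24 and Timp4 at -0.09. A p that misses the threshold with 3 libraries a group does not show that the groups are alike.

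Marker sums differed in this comparison as well, with no marker of any list called. Chondrocyte markers summed to 225 to 565 CPM in Ti+I-OG and 882 to 1013 CPM in Ti libraries, with 8 of 8 genes negative. The 225 CPM were those of Ti+I-OG replicate 3, against 526 and 565 CPM in Ti+I-OG replicates 1 and 2. Osteocyte markers summed to 173 to 213 CPM in Ti+I-OG and 233 to 304 CPM in Ti libraries. Osteoblast markers summed to 1966 to 3047 CPM in Ti+I-OG and 3033 to 4526 CPM in Ti libraries, with a slight overlap. Osteoclast markers summed to 1483 to 1966 CPM in Ti+I-OG and 1771 to 1873 CPM in Ti libraries, with overlap. Erythroid markers summed to 168662 to 183200 CPM in Ti+I-OG and 69664 to 102559 CPM in Ti libraries. The part of these markers in the lower values of Mmps and Adamts proteases was not tested.

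The third comparison set the hydrogel-treated tibiae against untreated ones, and it shares its naive libraries with Ti vs naive. Of the 38 genes, 4 rose in Ti+I-OG vs naive, namely Mmp2, Mmp3, Mmp14 and Timp2, and Mmp25 fell. These 5 are 13.2% of the 38, against 8.26% of all genes called in either direction, 3.84% higher and 4.43% lower. At an unadjusted p under 0.05 there were 11 of the 38, against 29.8% of all genes. The median log2 fold change was 0.21 over the 38 genes and 0.0325 over all genes, and 24 of the 38 were positive against 52.7% of all genes. Every Ti+I-OG library lay above every naive library in 8 genes and below in 4, while over all genes these shares were 18.7% and 16.9%. Medians were 0.47 for Mmps, 0.10 for Adamts proteases, 0.78 for Adamts-like genes and 0.76 for Timps, and no Adamts protease was called.

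Same-numbered libraries deviated together in this comparison, though no label says that replicate numbers pair samples. A fit with the replicate number as a block, chosen from these same data, called 11 of the 38 genes in place of 5. It called 3450 genes in all in place of 1174, so the genes it added are a hint only. The added genes were Timp1 (log2 1.16; edgeR with the block, adjusted p = 0.00320), Timp4 (0.96, adjusted p = 0.0138), Adamtsl5 (1.39, adjusted p = 0.0199), Mmp13 (0.82, adjusted p = 0.0244), Mmp23 (1.09, adjusted p = 0.0297) and Adamtsl4 (-1.07, adjusted p = 0.0387). DESeq2, which had no block, also called all of these added genes except Timp4, among 2440 genes called in all. Same-numbered libraries also deviated together in Ti+I-OG vs Ti, where the block left the number of the 38 genes called at 0.

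Mmp3 had 4.71, 9.55 and 1.64 CPM in Ti+I-OG tibiae, against 0.608, 0.420 and 0.377 CPM in naive tibiae. Even the lowest Ti+I-OG library lay above all naive ones, and Mmp3 rose 11.03-fold (log2 3.46, SE 0.584; edgeR, adjusted p = 0.0123). Mmp2 had 58.2, 78.6 and 76.1 CPM in Ti+I-OG tibiae, against 39.5, 35.0 and 19.6 CPM in naive tibiae, and rose 2.26-fold without overlap (log2 1.18, SE 0.228; edgeR, adjusted p = 0.0199). Without Ti+I-OG replicate 2 the adjusted p was 0.0565 for Mmp3, with a log2 fold change of 2.73, and 0.103 for Mmp2. Without Ti+I-OG replicate 3 it was 0.0511 for Mmp2.

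Mmp14 had 60.6, 65.2 and 61.3 CPM in Ti+I-OG tibiae, against 49.4, 32.7 and 44.8 CPM in naive tibiae. It rose 1.47-fold without overlap (log2 0.56, SE 0.155; edgeR, adjusted p = 0.0489), and lost the call when any of the 9 libraries was left out, with adjusted p between 0.0504 and 0.178. Timp2 had 170, 188 and 154 CPM in Ti+I-OG tibiae, against 109, 122 and 109 CPM in naive tibiae. It rose 1.505-fold without overlap (log2 0.59, SE 0.144; edgeR, adjusted p = 0.0350). Its adjusted p was 0.0896 and 0.121 without naive replicates 1 and 3, 0.0503 without Ti replicate 1, and 0.0905, 0.159 and 0.0551 without Ti+I-OG replicates 1, 2 and 3.

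Mmp25, also called leukolysin, had 56.7, 61.8 and 51.6 CPM in Ti+I-OG tibiae, against 95.8, 80.9 and 132 CPM in naive tibiae. All Ti+I-OG libraries lay below the naive ones, and Mmp25 fell by 0.86 on the log2 scale (SE 0.204; edgeR, adjusted p = 0.0326). Its adjusted p was 0.0592 and 0.0977 without naive replicates 1 and 3, 0.0513 without Ti replicate 1, and 0.0847, 0.110 and 0.0689 without Ti+I-OG replicates 1, 2 and 3. Mmp8, also of neutrophils, averaged 701 ± 107 CPM in Ti+I-OG and 884 ± 75.7 CPM in naive tibiae, without overlap (log2 difference -0.33, SE 0.160; edgeR, adjusted p = 0.184). Neutrophil markers summed to 26548 to 39516 CPM in Ti+I-OG and 35422 to 47167 CPM in naive libraries, with none of 8 called, and their part in the values of Mmp25 and Mmp8 was not tested.

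Mmp13 had 459, 485 and 266 CPM in Ti+I-OG tibiae, against 288, 154 and 233 CPM in naive tibiae. Ti+I-OG replicate 3 lay below the highest naive library, and the log2 difference of 0.84 missed the threshold (SE 0.261; edgeR, adjusted p = 0.0639). Timp1 averaged 17.2 ± 5.61 CPM in Ti+I-OG and 7.86 ± 3.93 CPM in naive tibiae (log2 difference 1.13; edgeR, adjusted p = 0.0630), with overlap. Mmp23, Adamtsl5 and Timp4 did not overlap between the groups, with log2 differences of 1.07, 1.34 and 0.93 and adjusted p of 0.0600, 0.0743 and 0.0929 by edgeR. Adamts12 had a log2 difference of 0.52 and overlapped (edgeR, adjusted p = 0.385). Adamts5 averaged 22.9 ± 1.55 CPM in Ti+I-OG and 29.9 ± 2.01 CPM in naive tibiae, without overlap (SD, n = 3 each; log2 difference -0.39; edgeR, adjusted p = 0.175). Without Ti+I-OG replicate 2 none of the 38 genes was called, and without Ti+I-OG replicates 1 or 3, naive replicates 1 or 3 or Ti replicate 1 there were 2. Calls over all genes fell in the same fits, to 59 without Ti+I-OG replicate 2, 156 and 400 without Ti+I-OG replicates 1 and 3, 369 and 187 without naive replicates 1 and 3 and 580 without Ti replicate 1, against 1174.

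Osteoclast markers were again higher, at 1483 to 1966 CPM in Ti+I-OG and 667 to 1080 CPM in naive libraries, with 6 of 8 genes called. Over all genes 3.84% were called higher. Tendon and fibroblast markers summed to 123 to 203 CPM in Ti+I-OG and 42.7 to 59.9 CPM in naive libraries, with 5 of 8 called. Osteocyte markers had 4 of 5 called, mast cell markers 3 of 5, adipocyte markers 2 of 4, smooth muscle and pericyte markers 1 of 4, macrophage markers 1 of 8 and skeletal muscle markers 1 of 7, all higher, and osteoblast and chondrocyte markers none of 8 each. Erythroid markers summed to 168662 to 183200 CPM in Ti+I-OG and 29536 to 96116 CPM in naive libraries, with 5 of 7 called higher. Their part in the results for Mmps and Timps was not tested.

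Genes that act with these enzymes were taken from lists chosen with earlier results of these data known. Some of them are also cell type markers and are counted in both places. These are Ctsk, Elane, Phex, Col1a1, Col2a1, Acan, Ibsp, Fmod, Runx2 and Sp7. Of 22 activators, inhibitors and partners, 18 were tested, and 3 rose and none fell in Ti vs naive, with a median of 0.12. This is 16.7% of the 18, against 6.43% of all genes called in either direction. The 3 were the proprotein convertases Pcsk6 (log2 1.32; edgeR, adjusted p = 0.0183) and Pcsk5 (0.93, adjusted p = 0.0467) and the protease inhibitor Serpine2 (0.48, adjusted p = 0.0394). Furin, the convertase that activates the membrane-anchored Mmps, and named after its values were seen, averaged 53.1 ± 14.6 CPM in Ti and 82.8 ± 22.9 CPM in naive tibiae (SD, n = 3 each; edgeR, adjusted p = 0.0962). None was called in Ti+I-OG vs Ti, with a median of -0.09, and Serpine2 alone rose in Ti+I-OG vs naive (0.47; edgeR, adjusted p = 0.0402). That is 5.56% of the 18, against 8.26% of all genes called in either direction.

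Of 31 other matrix proteases and their helpers, 28 were tested, and 8 rose and 2 fell in Ti vs naive, with a median of 0.47. This is 35.7% of the 28, against 6.43% of all genes. Ctsk, the collagen-degrading cathepsin of osteoclasts, averaged 738 ± 67.0 CPM in Ti and 241 ± 61.7 CPM in naive tibiae (SD, n = 3 each; log2 1.62; edgeR, adjusted p = 0.00377). The serine proteases Htra1, Htra3 and Htra4 rose by 1.90, 1.29 and 2.63, the osteocyte peptidase Phex by 1.52 and the procollagen C-proteinase enhancer Pcolce by 0.97. The granule serine proteases Ctsg and Prtn3 of immature myeloid cells fell by 1.07 and 1.35 (edgeR, adjusted p = 0.0239 and 0.0265). None was called in Ti+I-OG vs Ti, with a median of -0.16. The 6 that rose in Ti+I-OG vs naive were Ctsk (1.37), Htra1 (1.42), Htra3 (1.16), Htra4 (1.86), Pcolce (0.77) and the hyaluronidase Hyal2 (0.72), and Adam19 fell by 0.83. These 7 are 25% of the 28, against 8.26% of all genes.

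Of 25 matrix substrates, 24 were tested, and 11 rose and none fell in Ti vs naive, with a median of 0.91. This is 45.8% of the 24, against 6.43% of all genes. Collagen III (Col3a1) averaged 520 ± 204 CPM in Ti and 55.3 ± 20.0 CPM in naive tibiae (SD, n = 3 each; log2 3.23; edgeR, adjusted p = 0.00213). Comp, the substrate of Adamts7 and Adamts12, averaged 104 ± 27.3 CPM in Ti and 24.7 ± 4.13 CPM in naive tibiae (log2 2.07; edgeR, adjusted p = 0.00497). Fmod, Ibsp, Tnc and Bgn rose by 2.47, 1.20, 0.86 and 0.83. No substrate was called in Ti+I-OG vs Ti, 23 of 24 were negative and the median was -0.47. In 9 substrates every Ti+I-OG library lay below every Ti library, Comp among them at 59.9 ± 24.9 CPM in Ti+I-OG and 104 ± 27.3 CPM in Ti tibiae (log2 difference -0.79; edgeR, adjusted p = 0.628). Over all genes 49.6% were positive in Ti+I-OG vs Ti and 6.71% showed this separation downwards. In Ti+I-OG vs naive 20.8% of the 24 were called, against 8.26% of all genes. Col3a1, Fmod, Comp and Tnc rose by 2.74, 2.01, 1.28 and 0.49 in Ti+I-OG vs naive. Vcan fell by 1.58 (edgeR, adjusted p = 0.0458), with overlapping groups and 120 CPM in naive replicate 3 against 51.2 and 27.6 CPM in naive replicates 1 and 2.

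Of 18 transcription factors known to act on Mmp genes, 17 were tested, and Sp7, an osteoblast factor, rose in Ti vs naive by 1.05 (edgeR, adjusted p = 0.0304) while none fell. This is 5.88% of the 17, near the 6.43% of all genes called in either direction. The AP-1 subunits Fos and Jun, named after their values were seen, averaged 14.8 ± 4.06 and 15.7 ± 2.24 CPM in Ti and 11.7 ± 3.66 and 12.8 ± 3.38 CPM in naive tibiae (SD, n = 3 each), with overlap. Runx2 had a log2 difference of -0.05 in Ti vs naive. None was called by edgeR in Ti+I-OG vs Ti or in Ti+I-OG vs naive, with medians of -0.19 and -0.08.

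Some values are uncertain because the library kit does not mark strand. Exons of 8 tested genes overlap those of a gene on the other strand, and their reads cannot be told apart. They are Adamts4, Adamts7, Adamts9, Mmp11, Mmp19, Mmp28, Timp3 and Timp4, with Timp3 and Timp4 lying over parts of the synapsin genes Syn3 and Syn2. None of the genes called by edgeR on all 9 libraries without a block is among them. Timp4 was called in Ti vs naive by DESeq2, by both limma fits on FPKM, with the block and without naive replicate 2.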

How the data were processed

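Per the labels' protocols, mRNA of tibiae was selected on oligo(dT) beads, and libraries for Illumina sequencing were built with a NEBNext Ultra kit for RNA. The tools in the submitters' processing notes are RSEM, StringTie 1.3.1, fastp, edgeR and DESeq2, with no role or order. For the aligner and genome build nothing is stated: not given in the sources used here. The authors deposited estimated counts and FPKM values per gene for 9 libraries. Of the estimated counts, 8.49% were not whole, and all were rounded to whole numbers here. The FPKM values, as deposited by the authors, served for levels between genes and for an alternative test on log2 values of FPKM plus a pseudocount.

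The main test was edgeR's quasi-likelihood test (edgeR 4.0.16, R 4.3.3) after filterByExpr and TMM normalisation. All 9 libraries entered 1 model of group means, with 6 residual degrees of freedom, and the 3 pairwise contrasts share libraries. Tests were two-sided, with Benjamini-Hochberg adjustment over 14211 genes and a threshold of 0.05. The filter left out 7972 genes. CPM values are TMM-normalised, log2 fold changes are the fitted ones, and dividing each by the root of its F statistic gave the SE. This SE includes the spread between libraries. The floors cover counting error only, and PCR copies are not independent molecules.

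Groups and replicate numbers came from the titles. Pairs of libraries of a group differed by 12.9 to 132 chi-square per degree of freedom, so none was a copy. Deviations from the group means were correlated between same-numbered libraries. The correlations were 0.123, 0.259 and 0.270 for Ti+I-OG and Ti, and 0.252, 0.150 and 0.335 for Ti+I-OG and naive, all over 0.1. For Ti and naive they were -0.00947, 0.387 and 0.291. No label says that the numbers pair samples, so the block on them served as an alternative fit only.

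The genes and lists were chosen with earlier results of these data known. Named genes are those called in any contrast, the highest by FPKM of each subfamily, the 4 Timps, the 2 uncalled genes with the smallest p per contrast and, of the other lists, up to 6 called genes per contrast by smallest p. Any other gene is named as seen after its values or as part of a complete list. Promoters are RefSeq windows of 300 bases (GRCm38.p6), and exon overlaps come from GENCODE M21. Alternatives were DESeq2 1.42.0, RLE size factors, no low-count filter, the 6 libraries of a contrast, the replicate block, limma 3.58.1 on FPKM with pseudocounts of 1 and 0.1, a transcript length offset and leaving out each library.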

Additional observations from a re-analysis of the deposited data

How the results depend on the processing

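In Ti vs naive, 7 of the 38 genes were called, and this became 4 in a fit of the 6 libraries of the contrast alone and 2 to 9 when single libraries were left out. In Ti+I-OG vs naive, 5 were called, and this became 10 with DESeq2, 3 with the length offset and 0 to 5 when single libraries were left out. Over all genes, leaving out single libraries gave 100 to 1999 calls in Ti vs naive, 59 to 2119 in Ti+I-OG vs naive and 0 to 6 in Ti+I-OG vs Ti. The count in Ti+I-OG vs Ti was 0 under every alternative, left-out libraries included. Over all genes DESeq2 called 1859 in Ti vs naive, 2440 in Ti+I-OG vs naive and 16 in Ti+I-OG vs Ti, against 914, 1174 and 6 by edgeR. Over all genes the fit of 6 libraries called 357 in Ti vs naive and 770 in Ti+I-OG vs naive. The limma fits on FPKM called 556 (pseudocount 1) and 544 (0.1) in Ti vs naive, and 1787 and 1853 in Ti+I-OG vs naive, where the length offset called 351. Some of these fits had fewer libraries, and the cause of the different counts was not tested. With the length offset, the median log2 fold change of the 38 genes was 0.66 in Ti vs naive, against 0.51 in the main fit. It was -0.18 against -0.25 in Ti+I-OG vs Ti, and 0.44 against 0.21 in Ti+I-OG vs naive. With RLE size factors the medians were 0.50, -0.26 and 0.19 in the same order.

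With the replicate block, 12 genes were called in Ti vs naive, 11 in Ti+I-OG vs naive and 0 in Ti+I-OG vs Ti. Over all genes the block gave 2968, 3450 and 9 calls in the same order. Not every library deviated most like its own number, and the block is a hint from the data, not the design.

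Among single named genes, 825 alternative values kept direction and side of the threshold, 60 lost the call, 24 gained it and 58 turned sign, all 58 in genes not called in that comparison. In Ti vs naive the sign turned for Mmp8 (-0.0634, -0.0636 and -0.00634 with FPKM plus 1, FPKM plus 0.1 and the length offset), Adamts5 (0.15 with the length offset), Adamts10 (-0.00619 with DESeq2, -0.00664 with RLE, -0.0129 with no filter, -1.4e-05 with the block, -0.11 and -0.13 with FPKM) and Timp3 (-0.0220 and -0.0219 with FPKM). It turned in Ti+I-OG vs Ti for Mmp3 (-0.080 with the block, -0.15 and -0.27 with FPKM), Adamtsl5 (-0.085 and -0.12 with FPKM), Adamts10 (0.0044 with the length offset) and Mmp23 (-0.00285 with DESeq2, -0.00368 with RLE, -0.0134 with the block, -0.10 and -0.12 with FPKM, -0.10 with the length offset, -0.00191 with 6 libraries). It turned in Ti+I-OG vs naive for Adamts5 (0.039) and Adamts10 (0.047) with the length offset. Leaving out single libraries, log2 differences ranged in Ti vs naive from -0.11 to 0.11 for Adamts10, -0.27 to 0.078 for Adamts5, -0.032 to 0.082 for Mmp8, -0.034 to 0.35 for Mmp9 and -0.15 to 0.14 for Timp3. Those in Ti+I-OG vs Ti ranged from -0.16 to 0.088 for Adamts10, -0.56 to 0.12 for Adamts13, -0.12 to 0.37 for Adamtsl5, -0.17 to 0.12 for Mmp23, -0.63 to 0.52 for Mmp3 and -0.26 to 0.16 for Timp4. Those in Ti+I-OG vs naive ranged from -0.15 to 0.081 for Adamts10 and -0.32 to 0.027 for Mmp9. The cause of these turns was not tested. Genes under 1 CPM, such as Adamts13, rest on few counts, which limits what these libraries can show.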

Other observations

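Among the genes left out by the filter on low counts, Adamts16 had 7 counts summed over the 3 Ti+I-OG libraries, 35 over the Ti libraries and 2 over the naive libraries. Adamts20 had 4, 15 and 4 counts in the same groups, Adamts8 had 7, 19 and 9, and Adamts17 had 8, 29 and 22. Mmp10 had 1, 2 and 1, Mmp21 had 0, 3 and 2, and Mmp24 had 1, 3 and 3. Without the filter, all 7 were tested, and Adamts16 alone was called, higher in Ti vs naive (edgeR, adjusted p = 0.0482). Leaving out libraries also let Adamts16 through the filter in some fits, with an adjusted p of 0.0300 without Ti replicate 3, 0.0306 without Ti+I-OG replicate 3, 0.0522 without naive replicate 2 and 0.0602 without Ti+I-OG replicate 2. Its 2 naive counts lie under the floor of 3 counts, so no fold is given. The ratio of summed FPKM of the Mmps other than Mmp8 and Mmp9 to that of the Timps was 1.791 to 2.519 in Ti+I-OG libraries, 2.354 to 2.508 in Ti libraries and 1.205 to 2.537 in naive libraries, so the groups overlapped on it.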
